A study of Homo sapiens with 6 samples.

Results

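The ADAM and ADAMTS genes encode zinc proteases of the cell surface and of the extracellular matrix. The 10 genes ADAM9, ADAM10, ADAM12, ADAM17, ADAM19, ADAMTS1, ADAMTS4, ADAMTS5, ADAMTS9 and ADAMTS14 were taken by symbol, with no threshold on their values. Rows were found for 9 of these 10 symbols in a table of 16569 genes, and ADAM17 was not analysed here. They were measured by RNA sequencing of poly(A) RNA from LX-2, an established human line of hepatic stellate cells with the wild-type genotype. All cells grew in DMEM with 2% fetal bovine serum and spent 18 h without serum. They then received either 100 ng/mL of IGFBP-7 protein, a secreted insulin-like growth factor binding protein, or, as control, phosphate-buffered saline (PBS). After 24 h RNA was taken, and 3 libraries were made per group.

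ADAM proteins are anchored in the membrane and cut the outer part from neighbouring membrane proteins, a process called shedding that frees growth factors, cytokine receptors and adhesion molecules. ADAMTS proteins lack the membrane anchor, are secreted, and bind matrix through thrombospondin type 1 repeats. Some of them cut proteoglycans such as versican and aggrecan, and others remove the amino-terminal propeptide of fibrillar procollagens. Members of both groups are made as inactive precursors, are commonly activated by furin-like convertases, and are held in check by tissue inhibitors of metalloproteinases (TIMPs). Hepatic stellate cells produce and remodel much of the matrix of the injured liver, and ADAM12 is known to be made by activated stellate cells.

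All levels are the authors' normalized counts, and each log2 change is IGFBP-7 minus PBS with its standard error (SE) from limma-trend on log2(normalized count + 1), over 3 libraries per group. The IGFBP-7 libraries held 45242993 to 55479940 recovered reads and the PBS libraries 40599380 to 43537923. The labels do not say whether the libraries come from separate cultures, so p-values reflect only library-to-library spread, possibly a technical one. For each gene, limma-trend draws this spread toward a trend with level fitted over all tested genes. The SE and p-values are therefore not those of a gene's own 3 libraries per group alone. Of the stellate and mesenchymal markers, 10 of 12 had rows, and their summed level was 254692 to 278858 in IGFBP-7 libraries and 72596 to 76809 in PBS libraries, most of it COL1A1. Of the 9 tested, 6 rose, among them PDGFRB at 8224 in IGFBP-7 libraries against 3055 in PBS libraries, and 3 fell, which were LUM, HAND2 and RELN. DES, not tested, averaged 1.36 in IGFBP-7 libraries and was at 0 in PBS libraries. Hepatocyte markers summed to 218.8 to 260.0 in IGFBP-7 libraries and 241.6 to 290.5 in PBS libraries, and 6 of the 7 with rows had a mean under 10, ALB among them. Endothelial markers, 6 of 8 with rows, summed to 435 to 504 in IGFBP-7 libraries and 323.6 to 359.4 in PBS libraries. Macrophage and leukocyte markers, 7 of 8 with rows, summed to 1773 to 2064 in IGFBP-7 libraries and 3375 to 3466 in PBS libraries, most of it CD68. Of the 4 tested, CD68, CD14 and ITGAM fell and CSF1R rose, at 293.3 in IGFBP-7 libraries against 56.5 in PBS libraries. PTPRC, not tested, averaged 4.67 in IGFBP-7 libraries and 5.59 in PBS libraries. Epithelial markers, 8 of 8 with rows, summed to 37841 to 43939 in IGFBP-7 libraries and 27638 to 28460 in PBS libraries, nearly all of it KRT8 and KRT18, while EPCAM averaged 6.13 in IGFBP-7 libraries and 2.82 in PBS libraries. The part of these markers in the results below was not tested. In bulk RNA a change in the number of cells that express a gene cannot be told apart from a change in RNA per cell.

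The protease genes moved in both directions. ADAM19, ADAM12, ADAMTS4 and ADAM10 rose with IGFBP-7, while ADAM9, ADAMTS1, ADAMTS5 and ADAMTS14 fell, and ADAMTS9 did not pass the threshold of 0.05 on the adjusted p. Of the 4 membrane-anchored genes 3 rose and 1 fell, and of the 5 secreted ones 1 rose and 3 fell. Among all 11872 genes tested, those averaging 10 or more normalized counts, 31.3% rose and 29.2% fell, so that 4 of 9 in each direction is to be read against a comparison in which most genes changed. The groups of libraries did not overlap for 8 of the 9 genes, against 63.5% of all tested genes. The median log2 change was -0.38 over the 9 genes and 0.02 over all tested genes. Where values were scaled to the library total instead, the median of all tested genes shifted by -0.14 and the split of calls was 2432 higher and 4176 lower, against 3721 higher and 3471 lower; the 9 genes kept their directions and calls.

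**Figure D1:**
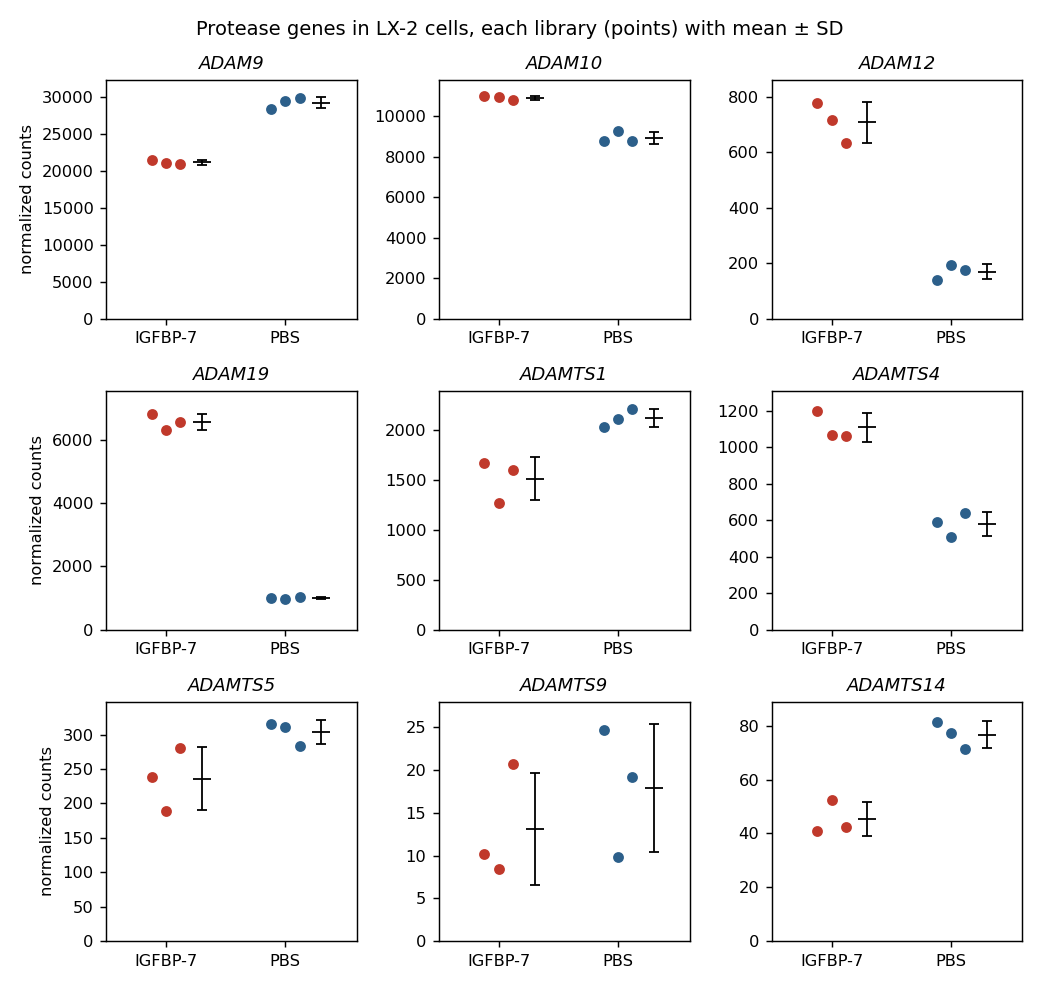
Normalized counts of the 9 protease genes in each library, with IGFBP-7 libraries to the left of PBS libraries and a separate vertical axis from 0 for each gene. Points are libraries, and bars are means with SD over 3 libraries. ADAM19 lies at 6318 to 6826 with IGFBP-7 and at 966.3 to 1042 with PBS, and the groups overlap in ADAMTS9.

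ADAM19 (ENSG00000135074), or meltrin beta, is a membrane protease known for shedding neuregulins, and it had the largest change of the 9 genes. It had 6826, 6318 and 6573 normalized counts in the IGFBP-7 libraries and 998.9, 966.3 and 1042 in the PBS libraries. Every IGFBP-7 library lay far above every PBS library. The mean was 6572 ± 254 in IGFBP-7 libraries and 1003 ± 38.2 in PBS libraries (SD, n = 3 each), a 6.55-fold rise and a log2 change of 2.71 ± 0.06 (SE, adjusted p = 2.17e-38, limma). Of all tested genes, 0.834% had a more positive log2 change.

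ADAM12 (ENSG00000148848), or meltrin alpha, exists in membrane-bound and secreted forms and is known to cleave insulin-like growth factor binding proteins 3 and 5. It had 777.9, 715.6 and 632.4 normalized counts in the IGFBP-7 libraries and 141.1, 192.5 and 175.2 in the PBS libraries. The lowest IGFBP-7 library was more than 3 times the highest PBS library. The mean was 709 ± 73.0 in IGFBP-7 libraries and 169.6 ± 26.2 in PBS libraries (SD, n = 3 each), a 4.18-fold rise and a log2 change of 2.06 ± 0.13 (SE, adjusted p = 8.45e-20, limma). Gene-level counts do not separate the membrane-bound form from the secreted one.

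Promoter windows of ADAM19, ADAM12 and ADAMTS14 are shown because ADAM19 and ADAM12 rose the most of the 9 genes and ADAMTS14 fell. Each window holds 300 bases, from 250 before the annotated start to 50 after it, read 5′ to 3′ on the gene's strand from RefSeq on build GRCh38.p14. The windows are chr5:157575726-157576025 on the minus strand for ADAM19, chr10:126388428-126388727 on the minus strand for ADAM12, and chr10:70672256-70672555 on the plus strand for ADAMTS14. RefSeq windows were kept for 4 of the 9 genes, these 3 and ADAM10. None was found for ADAMTS1, ADAMTS4, ADAMTS5 and ADAMTS9. Member windows on the chromosome of ADAM9 were left out, so whether it has one is not shown here. Capitals mark CAGAC or its reverse complement GTCTG, the short SMAD box.
ADAM19: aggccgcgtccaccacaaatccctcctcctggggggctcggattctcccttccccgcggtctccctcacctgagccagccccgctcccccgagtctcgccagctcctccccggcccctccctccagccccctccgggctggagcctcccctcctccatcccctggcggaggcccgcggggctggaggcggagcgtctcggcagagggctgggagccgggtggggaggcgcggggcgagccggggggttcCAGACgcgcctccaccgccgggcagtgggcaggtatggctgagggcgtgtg
ADAM12: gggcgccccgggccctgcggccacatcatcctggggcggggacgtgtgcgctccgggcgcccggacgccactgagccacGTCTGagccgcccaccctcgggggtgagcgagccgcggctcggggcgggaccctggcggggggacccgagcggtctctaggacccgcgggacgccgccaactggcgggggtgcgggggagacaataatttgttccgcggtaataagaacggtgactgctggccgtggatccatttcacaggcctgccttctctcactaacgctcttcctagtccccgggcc
ADAMTS14: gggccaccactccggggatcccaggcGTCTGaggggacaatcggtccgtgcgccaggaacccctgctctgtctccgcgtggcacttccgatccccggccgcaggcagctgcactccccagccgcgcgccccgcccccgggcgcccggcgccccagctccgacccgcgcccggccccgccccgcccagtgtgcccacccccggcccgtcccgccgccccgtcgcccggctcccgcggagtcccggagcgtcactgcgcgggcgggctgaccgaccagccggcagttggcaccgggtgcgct
Counted from 1 at the 5′ end of the window, the SMAD box begins at position 250 of the ADAM19 window, 80 of the ADAM12 window and 27 of the ADAMTS14 window. The box was in windows of genes that rose and of a gene that fell, and 45.3% of 34943 RefSeq promoter windows of the same length hold it on either strand. The GC box GGGCGG, searched on both strands as well, was found 0 times in the ADAM19 window, 3 times in the ADAM12 window and 5 times in the ADAMTS14 window, against 44.9% of all windows with at least 1. Neither the AP-1 element TGANTCA, held by 7.72% of all windows, nor the TEAD element GGAATG, held by 14% of all windows, was found in any of the 4 windows on either strand. GC content was 75.7% for ADAM19, 71% for ADAM12 and 79.7% for ADAMTS14, against a median of 58.7% over all windows.

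ADAM10 (ENSG00000137845) is the principal sheddase of Notch receptors and of many cadherins. It had 11007, 10947 and 10820 normalized counts in the IGFBP-7 libraries and 8760, 9293 and 8768 in the PBS libraries. The groups did not overlap, although the rise was the smallest of the 4. The mean was 10925 ± 95.2 in IGFBP-7 libraries and 8940 ± 305 in PBS libraries (SD, n = 3 each), and the log2 change was 0.29 ± 0.05 (SE, adjusted p = 3.88e-07, limma). With scaling to the library total the log2 change was 0.15 (adjusted p = 0.00286, limma).

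ADAM9 (ENSG00000168615), or meltrin gamma, is a broadly expressed sheddase, and it had the highest level of the 9 genes in every library. It had 21505, 21062 and 20886 normalized counts in the IGFBP-7 libraries and 28355, 29441 and 29907 in the PBS libraries. The groups did not overlap, and all IGFBP-7 libraries were the lower ones. The mean was 21151 ± 319 in IGFBP-7 libraries and 29234 ± 796 in PBS libraries (SD, n = 3 each), which is 0.724 times the PBS level and a log2 change of -0.47 ± 0.04 (SE, adjusted p = 1.62e-14, limma). ADAM9 and ADAM10 thus changed in opposite directions, each by less than 1.5-fold.

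ADAMTS4 (ENSG00000158859), also called aggrecanase-1, rose, whereas ADAMTS5, or aggrecanase-2, fell. Both are secreted and cleave the core proteins of aggrecan and versican. ADAMTS4 had 1199, 1066 and 1058 normalized counts in the IGFBP-7 libraries and 589.0, 506.7 and 640.9 in the PBS libraries. Each IGFBP-7 library exceeded each PBS library. The mean was 1108 ± 79.2 in IGFBP-7 libraries and 579 ± 67.6 in PBS libraries (SD, n = 3 each), a 1.92-fold rise and a log2 change of 0.94 ± 0.09 (SE, adjusted p = 1.22e-12, limma).

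ADAMTS5 (ENSG00000154736) had 238.2, 188.9 and 281.0 normalized counts in the IGFBP-7 libraries and 316.1, 311.3 and 284.1 in the PBS libraries. The groups came close to each other, the highest IGFBP-7 library at 281.0 and the lowest PBS library at 284.1. The log2 change was -0.38 ± 0.14 (SE, n = 3 each, adjusted p = 0.0188, limma). The call rested on single libraries: without IGFBP-7 replicate 2 the log2 change was -0.23 (adjusted p = 0.193, limma), without PBS replicate 1 it was -0.35 (adjusted p = 0.0624) and without PBS replicate 2 it was -0.36 (adjusted p = 0.0543).

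ADAMTS1 (ENSG00000154734) cleaves versican and aggrecan and is known for an anti-angiogenic activity. It had 1668, 1265 and 1601 normalized counts in the IGFBP-7 libraries and 2028, 2110 and 2205 in the PBS libraries. IGFBP-7 replicate 2 was the lowest of the 6 libraries, and the groups did not overlap. The mean was 1511 ± 216 in IGFBP-7 libraries and 2114 ± 88.6 in PBS libraries (SD, n = 3 each), which is 0.710 times the PBS level and a log2 change of -0.49 ± 0.08 (SE, adjusted p = 2.04e-07, limma).

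ADAMTS14 (ENSG00000138316) belongs with ADAMTS2 and ADAMTS3 to the procollagen amino-propeptidases. It had 40.89, 52.51 and 42.36 normalized counts in the IGFBP-7 libraries and 81.35, 77.58 and 71.56 in the PBS libraries. All PBS libraries were above all IGFBP-7 libraries. The mean was 45.3 ± 6.32 in IGFBP-7 libraries and 76.8 ± 4.94 in PBS libraries (SD, n = 3 each), which is 0.592 times the PBS level and a log2 change of -0.76 ± 0.27 (SE, adjusted p = 0.0128, limma). Its mean lay under 100, so a filter at that level leaves it untested.

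ADAMTS9 (ENSG00000163638) cleaves versican and aggrecan and has a further role in secretion from the endoplasmic reticulum. It had 10.22, 8.469 and 20.67 normalized counts in the IGFBP-7 libraries and 24.71, 9.82 and 19.23 in the PBS libraries, which correspond to 10, 10 and 20 sequenced fragments and to 24, 10 and 18. The groups overlapped, with a low library in each. The log2 change was -0.43 ± 0.54 with a 95% interval from -1.52 to 0.66 (SE, n = 3 each, adjusted p = 0.511, limma), so no change was detected, and the interval holds both a fall and a smaller rise. Leaving out 1 library gave log2 changes from -0.79 without PBS replicate 2 to -0.16 without PBS replicate 1; it was also -0.79 without IGFBP-7 replicate 3 and -0.19 without IGFBP-7 replicate 2. The library preparation was directional, but reads were counted with a strand setting not given in the sources used here. An antisense transcript of ADAMTS9 also has a row, and its level was not examined here. Reads of overlapping antisense genes can therefore not be told apart here, which also holds for ADAMTSL4, PAPLN, SH3PXD2A, LRP1, THBS1, VCAN and COL5A1 below.

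Levels were compared between genes after division by length, in normalized counts per kilobase of merged exons in the GENCODE release 29 annotation. This annotation was chosen here, since the authors' own is not stated. On this scale the order with IGFBP-7 was ADAM9, ADAM19, ADAM10, ADAMTS1, ADAMTS4, ADAM12, ADAMTS5, ADAMTS14 and ADAMTS9. With PBS it was ADAM9, ADAM10, ADAMTS1, ADAM19, ADAMTS4, ADAMTS5, ADAM12, ADAMTS14 and ADAMTS9. The ranges of ADAM12 and ADAMTS14 overlapped in PBS libraries, at 14.3 to 19.5 and 13.6 to 15.4 per kilobase; no other neighbours in the orders overlapped.

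By length-adjusted level, ADAM19 moved past ADAMTS1 and ADAM10. Its level was 820 to 886 in IGFBP-7 libraries and 125.4 to 135.3 in PBS libraries. That of ADAM10 was 669.2 to 680.8 in IGFBP-7 libraries and 541.8 to 574.8 in PBS libraries. The place of ADAM19 above ADAM10 rests on the merged lengths, 16168 bases for ADAM10 and 7704 for ADAM19. Before division ADAM10 was the higher in every IGFBP-7 library, at 10820 to 11007 normalized counts against 6318 to 6826. The lengths of the transcripts present were not measured. ADAM9 made up 60.5% to 61.8% of the summed length-adjusted level of the 9 genes in IGFBP-7 libraries and 79.1% to 79.5% in PBS libraries. The share of ADAM19 was 16.6% to 17.2% in IGFBP-7 libraries and 2.33% to 2.50% in PBS libraries. The sum itself was 5144, 4930 and 4978 in IGFBP-7 libraries and 5184, 5376 and 5442 in PBS libraries, so the makeup of the protease transcripts differed more than their total did.

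**Figure D2:**
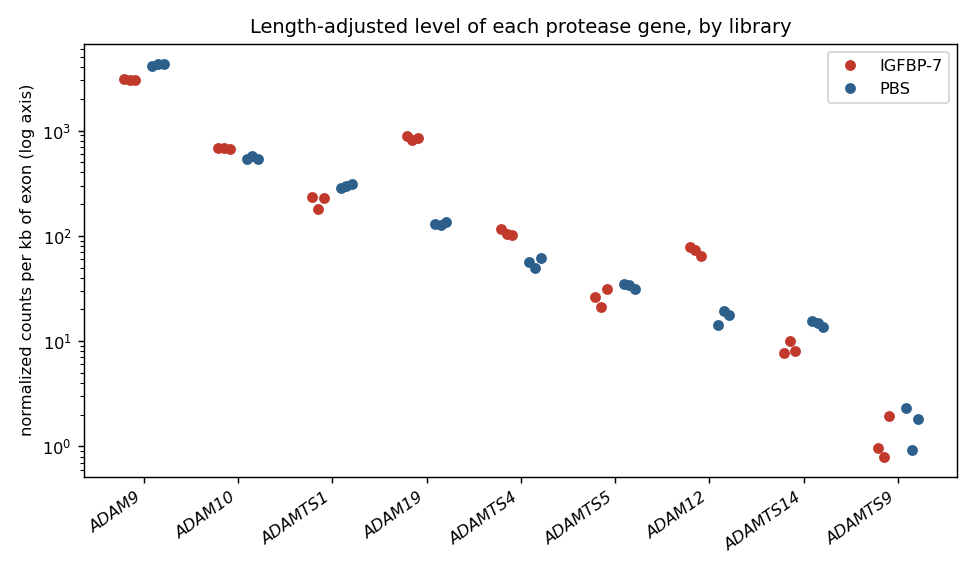
Length-adjusted levels of the 9 protease genes on a log axis, in normalized counts per kilobase of merged exons, for the IGFBP-7 and the PBS libraries. Points are libraries. ADAM9 is highest in both groups. After division by length, ADAM19 is above ADAM10 with IGFBP-7 and under it with PBS.

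Among the remaining genes of the families, the ADAM genes fell or did not pass. Of 16 other ADAM genes 12 had rows and 7 were tested. Among the 7, 0 rose and 4 fell, against 31.3% and 29.2% of all tested genes. The median log2 change was -0.46, against 0.02 over all tested genes. ADAM8, a sheddase mainly known from leukocytes, averaged 75.2 ± 16.0 in IGFBP-7 libraries and 306 ± 34.5 in PBS libraries (SD, n = 3 each), a log2 change of -2.03 ± 0.18 (SE, adjusted p = 4.95e-14, limma). Of the 4 macrophage and leukocyte markers tested, 3 fell and 1, CSF1R, rose with IGFBP-7, and their part in this difference was not tested. ADAM11 fell by 1.07 and ADAM23 by 0.48 on the log2 scale; both lack an active protease site. ADAM19, ADAM12 and ADAM10 were thus the members that rose among the 11 ADAM genes tested, by the main calls.

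The secreted ADAMTS genes outside the 9 mostly rose. Of 14, 12 had rows and 10 were tested. Among the 10, 6 rose and 1 fell, against 31.3% and 29.2% of all tested genes, and the median log2 change was 0.59. ADAMTS2, the main procollagen I amino-propeptidase, averaged 120.1 ± 18.3 in IGFBP-7 libraries and 43.2 ± 12.3 in PBS libraries (SD, n = 3 each), a log2 change of 1.48 ± 0.25 (SE, adjusted p = 1.83e-06, limma). ADAMTS10 rose by 1.14 and ADAMTS6 by 0.94 on the log2 scale; they are related proteases of fibrillin microfibrils. ADAMTS12, which cleaves cartilage oligomeric matrix protein, fell by 0.25. Together with the 5 ADAMTS genes among the 9, 7 of 15 ADAMTS genes tested rose and 4 fell, against the same 31.3% and 29.2%.

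The ADAMTS-like genes encode secreted matrix proteins with the repeats of ADAMTS enzymes but no protease domain. All 7 listed were tested. In this list 0 rose and 4 fell, against 31.3% and 29.2% of all tested genes, and the median log2 change was -0.56. ADAMTSL1 averaged 388 ± 52.1 in IGFBP-7 libraries and 1213 ± 43.3 in PBS libraries (SD, n = 3 each), a log2 change of -1.65 ± 0.10 (SE, adjusted p = 1.35e-20, limma). ADAMTSL4, which binds fibrillin, fell by 1.43 and PAPLN, or papilin, by 0.79 on the log2 scale.

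**Figure D3:**
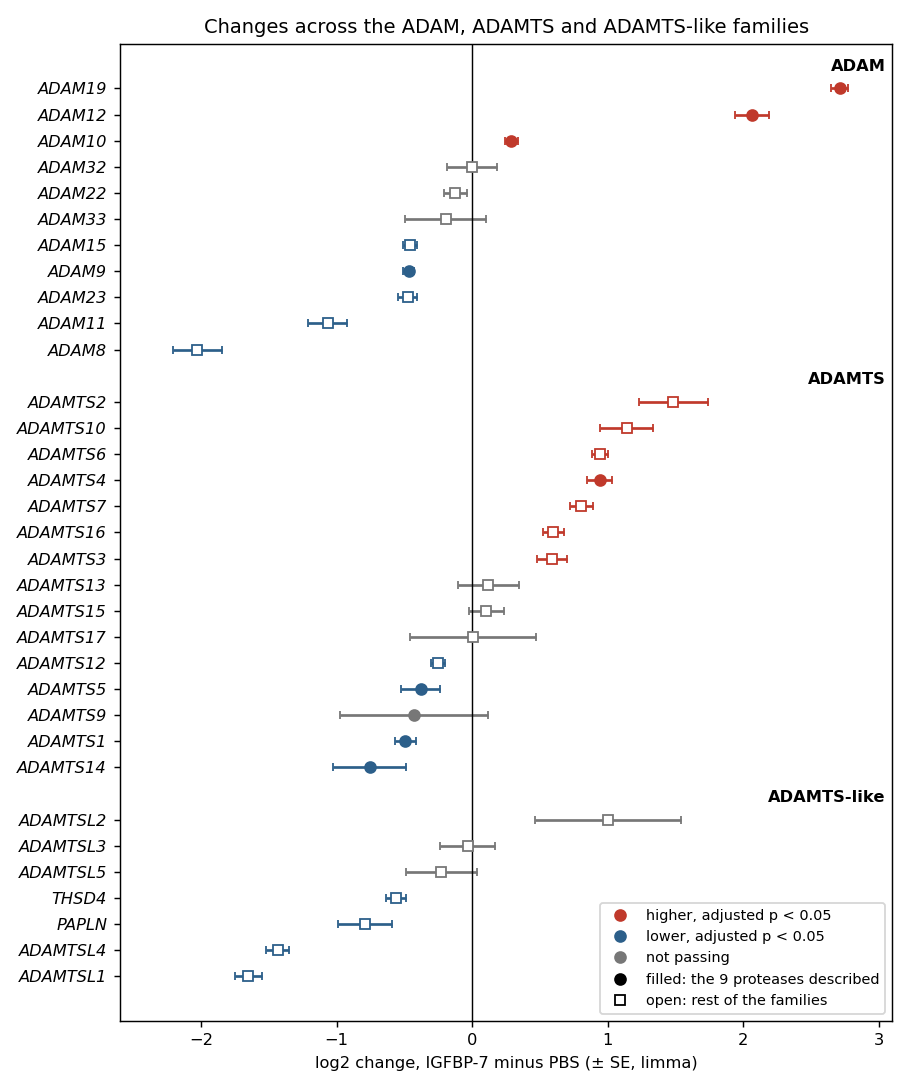
Log2 change (IGFBP-7 minus PBS) with bars of ± SE for each tested ADAM, ADAMTS and ADAMTS-like gene, grouped by class; filled circles are the 9 protease genes, open squares the other genes. Red genes rose, blue genes fell and grey genes did not pass. Of 11 ADAM genes 3 rose and 5 fell, and of 15 ADAMTS genes 7 rose and 4 fell. Of 7 ADAMTS-like genes 0 rose and 4 fell. Among all tested genes 31.3% rose and 29.2% fell.

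Of 6 listed inhibitors 5 had rows and 3 were tested. Among the 3, 2 rose and 0 fell, against 31.3% and 29.2% of all tested genes, and the median log2 change was 0.27. TIMP1, which inhibits ADAM10, had 26301, 22753 and 26937 normalized counts in IGFBP-7 libraries and 13604, 12691 and 12942 in PBS libraries, a log2 change of 0.95 ± 0.05 (SE, n = 3 each, adjusted p = 1.29e-23, limma). TIMP3, the matrix-bound inhibitor of ADAM12 and of aggrecanases, had 14128, 12115 and 13172 in IGFBP-7 libraries and 10838, 10586 and 11141 in PBS libraries, a log2 change of 0.27 ± 0.05 (SE, n = 3 each, adjusted p = 2.83e-06, limma). Both rose without overlap between the groups. RECK, a membrane-anchored inhibitor, averaged 460.5 in IGFBP-7 libraries and 496.7 in PBS libraries (adjusted p = 0.406, limma), and with scaling to the library total its log2 change was -0.25 with an adjusted p of 0.0478. TIMP2 was not analysed here.

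Ratios of transcripts within a library do not depend on how libraries were scaled, and 6 were compared between the groups. The log2 ratio of ADAM12 to TIMP3 was -4.21 ± 0.15 in IGFBP-7 libraries and -6.0 ± 0.24 in PBS libraries (SD, n = 3 each), a difference of 1.79. The ratio of ADAMTS4 to TIMP3 was higher by 0.67 with IGFBP-7, at -3.57 in IGFBP-7 libraries against -4.23 in PBS libraries. The ratio of ADAMTS1 to TIMP3 differed by -0.77, at -3.13 in IGFBP-7 libraries against -2.36 in PBS libraries, and that of ADAMTS5 to TIMP3 by -0.65, at -5.81 in IGFBP-7 libraries against -5.16 in PBS libraries. The ratio of ADAM10 to TIMP1 differed by -0.66, at -1.21 with IGFBP-7 against -0.55 with PBS, so ADAM10 rose by less than this inhibitor did. The ratio of ADAM12 to ADAM19 differed by -0.65, at -3.22 in IGFBP-7 libraries against -2.57 in PBS libraries. None of the 6 ratios overlapped between the groups, and each gave p = 0.1 in a two-sided exact permutation test, the smallest value that 3 against 3 libraries allow (Benjamini-Hochberg adjusted over the 6 ratios, 0.1). No gene in these ratios overlapped between the groups on its own either, and nor did 63.5% of all tested genes. The ratios are of transcripts and not of active proteins.

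**Figure D4:**
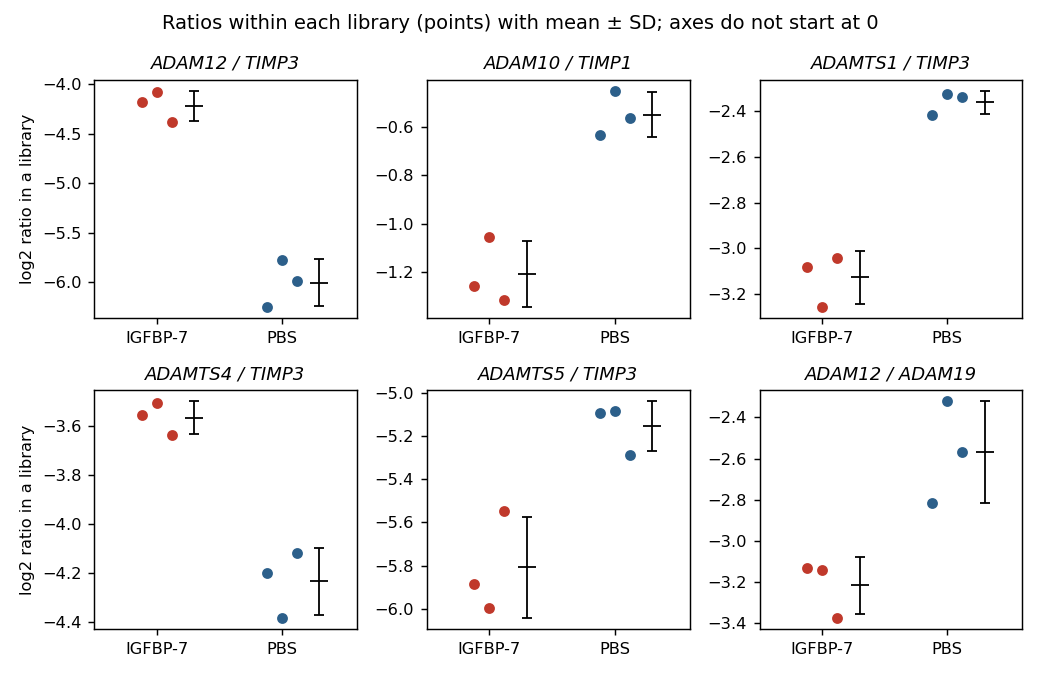
Log2 ratio of a protease to its inhibitor, or of ADAM12 to ADAM19, in each library, with IGFBP-7 libraries beside PBS libraries. Points are libraries, bars are means with SD over 3 libraries, and the axes do not start at 0; the ratio to TIMP3 is higher with IGFBP-7 for ADAM12 and ADAMTS4 and lower for ADAMTS1 and ADAMTS5.

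Of 18 genes listed for maturation, trafficking and clearance of these proteases, 14 had rows and all 14 were tested. Among the 14, 6 rose and 4 fell, against 31.3% and 29.2% of all tested genes, and the median log2 change was 0.15. FURIN, the convertase that activates many of them, averaged 17937 ± 332 in IGFBP-7 libraries and 8666 ± 154 in PBS libraries (SD, n = 3 each), a log2 change of 1.05 ± 0.04 (SE, adjusted p = 9.68e-27, limma). SH3PXD2A, or TKS5, a scaffold that binds the tails of ADAM12, ADAM15 and ADAM19, averaged 15612 ± 598 in IGFBP-7 libraries and 4811 ± 207 in PBS libraries (SD, n = 3 each), a log2 change of 1.70 ± 0.05 (SE, adjusted p = 4.17e-34, limma). This scaffold rose together with both ADAM12 and ADAM19, whereas ADAM15 fell, at a log2 change of -0.46 (adjusted p = 3.18e-11, limma). LRP1, the endocytic receptor that clears ADAMTS4 and ADAMTS5, rose by 0.74 on the log2 scale.

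TSPAN15, a tetraspanin that carries ADAM10 to the surface, rose by 0.87 on the log2 scale. Of the other tetraspanins that bind ADAM10, TSPAN17 fell by 0.25 and TSPAN10 by 0.51 (adjusted p = 0.0236, limma), and TSPAN33 had a log2 change of -0.05 (adjusted p = 0.608). With library-total scaling TSPAN33 passed, at a log2 change of -0.19 (adjusted p = 0.0429). The TSPAN10 call was lost without PBS replicate 2, at a log2 change of -0.30 (adjusted p = 0.257, limma). It was also lost without IGFBP-7 replicate 1 (adjusted p = 0.0636) and without IGFBP-7 replicate 2 (adjusted p = 0.0666). The same held with no filter (adjusted p = 0.05315) and with quantile normalization (adjusted p = 0.0557). RHBDF1, the pseudoprotease iRhom1 known for bringing ADAM17 to the surface, averaged 1449 ± 83.3 in IGFBP-7 libraries and 2815 ± 159 in PBS libraries (SD, n = 3 each), a log2 change of -0.96 ± 0.07 (SE, adjusted p = 9.10e-18, limma). RHBDF2 was not analysed here. The number of the 14 genes that fell was 2 without IGFBP-7 replicate 2 and 2 without PBS replicate 2.

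Transcripts of membrane proteins known to be shed by ADAM proteases mostly fell. Of 37 listed, 30 had rows and 25 were tested. Of the 25, 7 rose and 17 fell, against 31.3% and 29.2% of all tested genes. The median log2 change was -0.46, against 0.02 over all tested genes. VCAM1, an adhesion molecule, averaged 302 ± 21.0 in IGFBP-7 libraries and 3201 ± 188 in PBS libraries (SD, n = 3 each), a log2 change of -3.40 ± 0.08 (SE, adjusted p = 5.14e-37, limma). EREG, an EGF receptor ligand, had 6, 0 and 12 fragments in IGFBP-7 libraries and 62, 54 and 59 in PBS libraries. It fell by 3.73 on the log2 scale, and the log2 change was -2.64 without IGFBP-7 replicate 2 and -4.51 without IGFBP-7 replicate 3. TNFRSF1B, the type 2 TNF receptor, fell by 2.26. JAG1, a Notch ligand, averaged 8133 ± 375 in IGFBP-7 libraries and 1628 ± 84.4 in PBS libraries (SD, n = 3 each), a log2 change of 2.32 ± 0.06 (SE, adjusted p = 1.17e-36, limma). CDH11, a mesenchymal cadherin, rose by 2.28, and the receptor NOTCH3 by 1.46. These values are transcript levels, and shedding was not measured.

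Of 16 listed matrix substrates of ADAMTS proteases 14 had rows and 11 were tested. Among the 11, 6 rose and 4 fell, against 31.3% and 29.2% of all tested genes, and the median log2 change was 0.39. VCAN, or versican, the substrate shared by ADAMTS1, ADAMTS4, ADAMTS5 and ADAMTS9, averaged 18067 ± 1273 in IGFBP-7 libraries and 5787 ± 88.6 in PBS libraries (SD, n = 3 each), a log2 change of 1.64 ± 0.05 (SE, adjusted p = 1.60e-33, limma). BGN, or biglycan, rose by 2.39 on the log2 scale and THBS1, or thrombospondin-1, by 1.90. RELN, or reelin, fell by 2.90, LUM, or lumican, by 1.68, and NID2, a nidogen of basement membranes, by 0.72. VCAN and ADAMTS4 rose together, while ADAMTS1 and ADAMTS5 fell.

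All 12 genes listed around procollagen processing were tested. Besides ADAMTS2, ADAMTS3 and collagen genes, the list holds BMP1, PCOLCE, PCOLCE2, CCBE1 and VEGFC, and it leaves out ADAMTS14. Its counts therefore do not describe the removal of amino-propeptides alone. In it 9 rose and 2 fell, against 31.3% and 29.2% of all tested genes, and the median log2 change was 0.84. The list shares ADAMTS2 and ADAMTS3 with the ADAMTS genes above. COL5A1 averaged 73632 ± 2783 in IGFBP-7 libraries and 12285 ± 371 in PBS libraries (SD, n = 3 each), a log2 change of 2.58 ± 0.04 (SE, adjusted p = 1.08e-45, limma). COL1A1 rose by 2.00 and COL1A2 by 1.75 on the log2 scale. ADAMTS14, the remaining amino-propeptidase, fell while ADAMTS2 and these collagen genes rose. CCBE1, a partner of ADAMTS3 in the activation of VEGF-C, fell by 0.81 and VEGFC itself by 0.46.

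**Figure D5:**
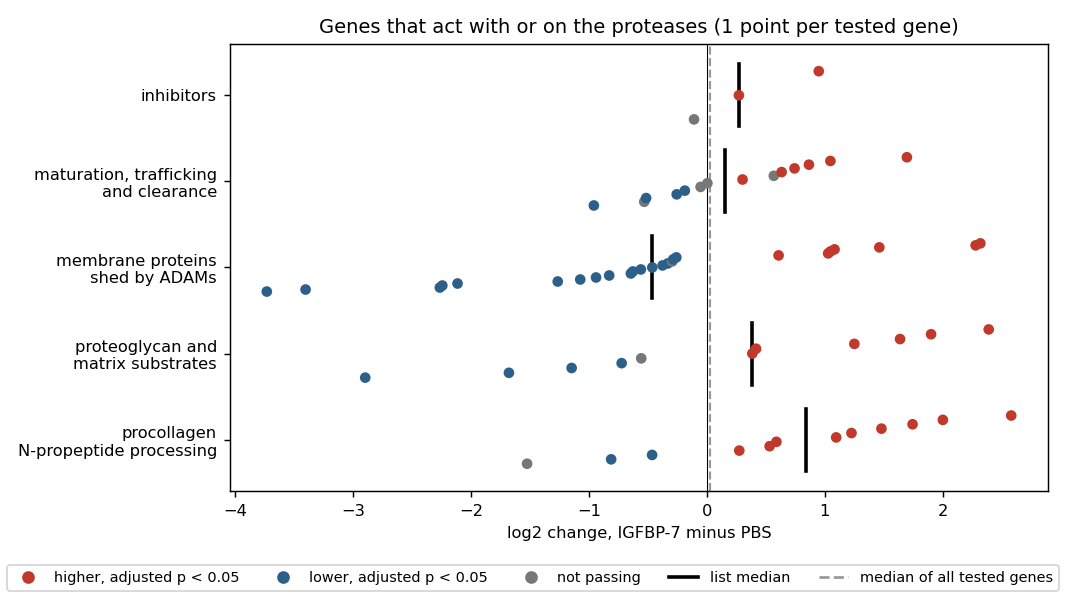
Log2 change (IGFBP-7 minus PBS) of each tested gene in the lists of inhibitors, maturation factors, shed membrane proteins, matrix substrates and procollagen processing. Points are genes, red where they rose, blue where they fell and grey where they did not pass; black bars are list medians and the dashed line is the median of all tested genes. List medians run from -0.46 for shed membrane proteins to 0.84 for procollagen processing.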

How the data were processed

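The deposited values are a signal: per the file headers, normalized counts of the authors for 16569 genes in 6 libraries, on a linear scale. The tools STAR, Subread, featureCounts and DESeq2 come without versions, per the submitters' processing notes. Build, annotation and strand setting: not given in the sources used here. Within each library 100% of values were whole multiples of 1 step, within 0.01 of a step, so read counts were recovered, and 2 reads were taken as 1 fragment because 99.6% of nonzero counts were even. A level of 3 fragments equals 2.54 to 3.20 normalized counts, for counting error only. Chi-square per degree of freedom between libraries of a group was 5.27 to 7.23, so none agreed within sampling noise.

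Since the deposited values are normalized, the comparison used limma-trend (limma 3.58.1, R 4.3.3) on log2(normalized count + 1), which understates changes of low genes, with no covariates. It was two-sided, with Benjamini-Hochberg adjustment over 11872 genes with a mean of at least 10, and had a threshold of 0.05. Folds are log2 changes put on the linear scale. Alternatives were edgeR's quasi-likelihood test (4.0.16), which called 7103 genes, and DESeq2 (1.42.0), which called 7108, both on recovered reads, other pseudocounts, filters and scalings, a replicate block, and each library left out. Both count tools were given recovered reads that were not converted to fragments. The fitting steps were tested on simulated data, which were on the fragment scale.

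The members and lists were chosen with earlier results of these data known. Genes named by rule are the members, TIMP1, TIMP2, TIMP3, RECK, RHBDF1, RHBDF2, FURIN, SH3PXD2A and LRP1. To these were added, from each list, up to 3 genes with the most positive and 3 with the most negative change. They were taken among those past the threshold without overlap. Some further genes, such as ADAM15, are named beside these. Promoter windows came from RefSeq on GRCh38.p14.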

Additional observations from a re-analysis of the deposited data

How the results depend on the processing

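Over 15 alternative settings the 9 protease genes gave 133 values, of which 130 had the same direction and the same side of the threshold as reported, and nothing reversed; the 3 others were losses of the ADAMTS5 call, at log2 changes of -0.2295 without IGFBP-7 replicate 2, -0.3509 without PBS replicate 1 and -0.362 without PBS replicate 2. Over all libraries left out in turn ADAMTS5 ran from -0.515, where the call was kept, to -0.2295. Of 553 values for the 37 other genes named by rule, 547 stayed the same, and the 6 others belonged to RECK and TSPAN10. Scaling to the library total gave 2432 genes higher, 1 inhibitor lower, and median log2 changes of -0.1173 for all tested genes, -0.5996 for other ADAM, 0.4527 for other ADAMTS and -0.7028 for ADAMTS-like genes, 0.1313 for inhibitors, 0.0134 for maturation genes, -0.6026 for shed proteins, 0.2452 for matrix substrates and 0.7031 for procollagen processing. Quantile normalization gave medians of 0.0605 for all genes, -0.5045 for other ADAM genes, 0.1431 for inhibitors and 0.068 for matrix substrates. A filter at a mean of 100 tests fewer genes and gave 0.0679 for all genes, -0.7937 for ADAMTS-like genes, -0.3302 for shed proteins, 0.4184 for matrix substrates and 0.5909 for procollagen processing. No filter adds low genes and gave -0.1594 for other ADAM genes, 0.3547 for other ADAMTS genes and 0.4169 for matrix substrates. The median of all genes was 0.0004 with edgeR and 0.0027 with DESeq2; the cause was not tested. With each library left out in turn, medians ran from -0.4781 to -0.4162 for other ADAM, 0.5141 to 0.6436 for other ADAMTS and -0.6343 to -0.4959 for ADAMTS-like genes, -0.5259 to -0.3811 for shed proteins and 0.8213 to 0.8827 for procollagen processing. ADAMTS-like genes called higher then numbered 0 to 1, the 1 without IGFBP-7 replicate 2, and maturation genes called lower 2 to 4. The ratios of ADAM17 were not run, as ADAM17 was not analysed here. Depth limits ADAMTS9, which had 10 to 24 fragments per library.

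Replicate numbers are shared by the groups, but same-numbered libraries did not deviate together, with correlations of -0.0452, 0.0117 and -0.0491. With so few libraries these values cannot exclude a shared culture or batch, which the labels do not give. With a replicate block, ADAMTS5 had a log2 change of -0.3802 (adjusted p = 0.0137, limma) and the protease genes numbered 4 higher and 4 lower as before.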
